A study of Mus musculus with 9 samples.

Results

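Methylation of single CpGs was compared between naive B cells, plasmablasts and plasma cells at 5 mouse genes, Arid3a, Pim1, Rassf3, Cdc42bpb and Gm7120. The genes were picked from the same data for holding many CpGs with a lower methylation level in plasma cells than in plasmablasts; Bcor and Srprb, which were not picked, held as many as 3 of them. Every CpG assigned to them by the nearest transcription start site was taken if it had at least 10 reads in all 9 libraries. That left 392 of their 784 deposited CpGs, out of 356320 tested CpGs and 911004 deposited CpGs in all. Of these, 58 of 140 belonged to Arid3a, 97 of 199 to Pim1, 96 of 160 to Rassf3, 108 of 239 to Cdc42bpb and 33 of 46 to Gm7120.

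DNA methylation had been measured by reduced representation bisulfite sequencing, which cuts DNA at MspI sites and reads unmethylated cytosines as thymines, in spleen cells of female C57Bl/6J mice aged 10 weeks. There were 3 stages with 3 libraries each: naive B cells, which were B220+ CD43- and had the agent control, then plasmablasts with mid B220 and CD138+, and plasma cells with low B220 and CD138+. The last 2 were taken on day 3 after lipopolysaccharide (LPS), a bacterial product that drives B cells to divide and differentiate. Both were taken on the same day, so cells were not followed in time. Steps, loss and late refer to the assumed order of stages. No genetic change is named for any group, and the labels do not say which animals gave which library, so the spread between libraries of a stage may be technical. A methylation level here is the percentage of reads at a CpG that were methylated, and because each library is a bulk sample, fewer cells with methylated alleles and a change in every cell cannot be told apart.

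In mammals methylation of CpGs is copied to the new strand after DNA replication by DNMT1, and it can be lost when copying fails during repeated division or when TET enzymes oxidise it. CpG-dense start sites are usually free of methylation, whereas gene bodies and the sequence between genes are usually methylated. B cells that become plasmablasts and plasma cells divide several times and replace the B cell programme with that of antibody secretion. Arid3a, also known as Bright, encodes an AT-rich interaction domain protein that binds DNA beside the immunoglobulin heavy chain locus. Pim1 encodes a serine/threonine kinase first found as a common site of retroviral insertion in mouse lymphomas and induced by cytokines. Rassf3 encodes a Ras association domain protein, and Cdc42bpb the kinase MRCK beta, which binds active Cdc42 and acts on actin and myosin. Gm7120 is listed by RefSeq under the symbol Tmem267, a predicted transmembrane protein.

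Start sites of Pim1 and Cdc42bpb are shown as examples of CpG-dense sequence, at genes where no CpG within 1000 bp of a start was called between the 2 LPS stages. Both are 300-base windows around the start in RefSeq build GRCm38.p6, on the gene's own strand, with each CG in capitals. The Pim1 window, chr17:29490535-29490834 on the plus strand, holds 42 CGs. The Cdc42bpb window, chr12:111377669-111377968 on the minus strand, holds 48 CGs. The median over all 32851 RefSeq promoter windows of the same length was 7 CGs, and 3.03% and 1.22% of windows held at least as many as Pim1 and Cdc42bpb. The 2 RefSeq windows of Gm7120 hold 22 and 50 CGs (23.1% and 0.855% of windows hold as many or more), and a second Pim1 window holds 5 (62.0%).
Pim1: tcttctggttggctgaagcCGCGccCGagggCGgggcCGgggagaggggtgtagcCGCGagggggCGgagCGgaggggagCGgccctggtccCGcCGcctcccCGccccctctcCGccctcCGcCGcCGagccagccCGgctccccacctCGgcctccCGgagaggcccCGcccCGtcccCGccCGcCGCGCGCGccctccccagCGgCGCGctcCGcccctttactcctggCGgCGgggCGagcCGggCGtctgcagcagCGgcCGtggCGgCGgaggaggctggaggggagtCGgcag
Cdc42bpb: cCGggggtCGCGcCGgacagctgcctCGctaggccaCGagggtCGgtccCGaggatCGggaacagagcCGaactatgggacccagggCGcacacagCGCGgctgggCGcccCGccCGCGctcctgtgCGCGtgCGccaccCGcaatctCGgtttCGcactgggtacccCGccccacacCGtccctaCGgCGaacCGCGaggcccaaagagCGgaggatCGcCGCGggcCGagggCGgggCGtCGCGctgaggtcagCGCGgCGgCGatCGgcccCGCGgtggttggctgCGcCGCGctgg
The deposited positions follow build mm9, so these letters are not matched to single measured CpGs.

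Within 1000 bp of a start site, Pim1 had 16 tested CpGs and Cdc42bpb 31, of which 16 and 29 were under 10% methylated in naive B cells. The mean level over these Pim1 CpGs was 2.27 ± 2.02% for naive B cells, 3.99 ± 1.82% for plasmablasts and 0.571 ± 0.259% for plasma cells (SD, n = 3 libraries). For Cdc42bpb it was 3.91 ± 1.29%, 5.39 ± 2.46% and 2.33 ± 0.425% in the same order of stages. The 18 Rassf3 CpGs of that window were likewise all under 10% in naive B cells, with means of 2.38 ± 1.92%, 3.21 ± 1.44% and 0.949 ± 1.10% from naive B cells through plasmablasts and plasma cells. Arid3a was mixed, with 15 of 22 CpGs under 10%, and averaged 22.4 ± 2.10%, 18.7 ± 1.202% and 10.99 ± 3.59% through the 3 stages. Gm7120 was unlike the other 4 genes in that none of its 27 CpGs near a start site was under 10% in naive B cells. They averaged 74.8 ± 7.81% for naive B cells, 80 ± 1.67% for plasmablasts and 64.0 ± 5.28% for plasma cells.

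Libraries differed in a way that the stages do not explain. At 78187 CpGs that were nearly unmethylated everywhere, reads were methylated at 0.749% in naive B cells 1 and 1.07% to 1.17% in plasma cells, but 2.09% to 6.11% in plasmablasts and 2.63% to 3.13% in naive B cells 2 and 3. By these levels plasma cells and plasmablasts fall wholly into different library sets, which the labels do not name. Stage and library set therefore cannot be told apart in the comparison of these 2 stages. With each library's low level subtracted, 31 of the 36 member CpGs described next were still called. The subtracted levels, 0.749% to 6.11%, are small beside the minimum of 20 points for a call. Library differences at methylated CpGs are therefore not tested by this. Total reads ran from 16037172 to 29948088 per library, and the median coverage of tested CpGs from 24 to 36. CpGs near start sites of T cell marker genes (31 CpGs of 3 of 6 genes) stood at 24.9% to 30% for naive B cells, 25.3% to 29.1% for plasmablasts and 19.6% to 22.5% for plasma cells, and their part in the results was not tested. Those of B cell genes (14 CpGs of 3 of 6) and plasma cell genes (8 CpGs of 2 of 5) were under 10% in every library and do not tell the stages apart. No CpG of 5 myeloid genes was tested.

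Plasma cells had a lower level than plasmablasts at 36 of the 392 CpGs and a higher level at none. A CpG counted as lower where a quasi-binomial model of its methylated and unmethylated reads gave an adjusted p under 0.01 over all CpGs together with a difference of at least 20 percentage points in pooled level. Of all tested CpGs 0.659% were called lower and 0.000842% higher in this comparison. Since the genes were chosen on it, their counts and differences in it are a description and no p is given. At an unadjusted p under 0.05, 1 of the 392 was higher in plasma cells, and limma on log2 read ratios also called none higher. At all 36 CpGs each plasma cell library lay below each plasmablast library. Choosing CpGs by a large difference favours this, so it is not separate support for the calls. It was also so at CpGs that were not called, such as chr10:79394949 and chr10:79397387 in Arid3a. The share over all tested CpGs was not counted. The model applies 1 dispersion to all CpGs, so a CpG's own spread between libraries does not enter its call, and its number of reads sets the precision. Limma on log2 ratios of the reads called none of the 36, nor any CpG of the table in this comparison, at the same threshold, with 139 of the 392 lower at an unadjusted p under 0.05. Fits that left out 1 library called 12 to 42 member CpGs. There were 12 without plasma cells 3, 18 without plasma cells 2, 16 without plasmablasts 3 and 19 without plasmablasts 2. The shares of all tested CpGs in those fits are not given here, so the changes cannot be read as particular to these genes.

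The 36 CpGs were 7 of Arid3a, 6 each of Pim1, Rassf3 and Cdc42bpb, and 11 of Gm7120. They fell into 18 runs of tested CpGs in which neighbours were at most 200 bp apart. Since 19 of the 36 lay less than 50 bp, the length of 1 read, from another of them, they formed 23 groups that do not share single reads, 2 of these in Gm7120, 6 in Arid3a and 5 in each of the other 3 genes. By deposited class, 15 lay in introns, 11 in promoters, 8 between genes and 2 in exons. All 11 promoter CpGs belonged to Gm7120, so that the other 4 genes had 25 CpGs, none of them in a promoter. The tested CpGs of the 5 genes were 176 intronic, 105 intergenic, 74 promoter and 37 exonic. In the whole table, CpGs lower in plasma cells than in plasmablasts were 941 intronic, 890 intergenic, 270 promoter and 248 exonic. These were 0.767%, 0.734%, 0.488% and 0.434% of the tested CpGs of each class. Whether the members differ from the table by class was not tested. By level in naive B cells, the 36 comprised none of the 115 member CpGs under 10%, 1 of the 35 between 10% and 50%, 15 of the 46 between 50% and 80% and 20 of the 196 at 80% or more. Over all tested CpGs the called share at these levels was 0.0495%, 1.16%, 2.15% and 0.698%. Of the 15 between 50% and 80%, 11 were those of Gm7120, where the naive B cell libraries disagreed with each other. A CpG under 20% in plasmablasts could not have met the minimum of 20 points.

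**Figure D1:**
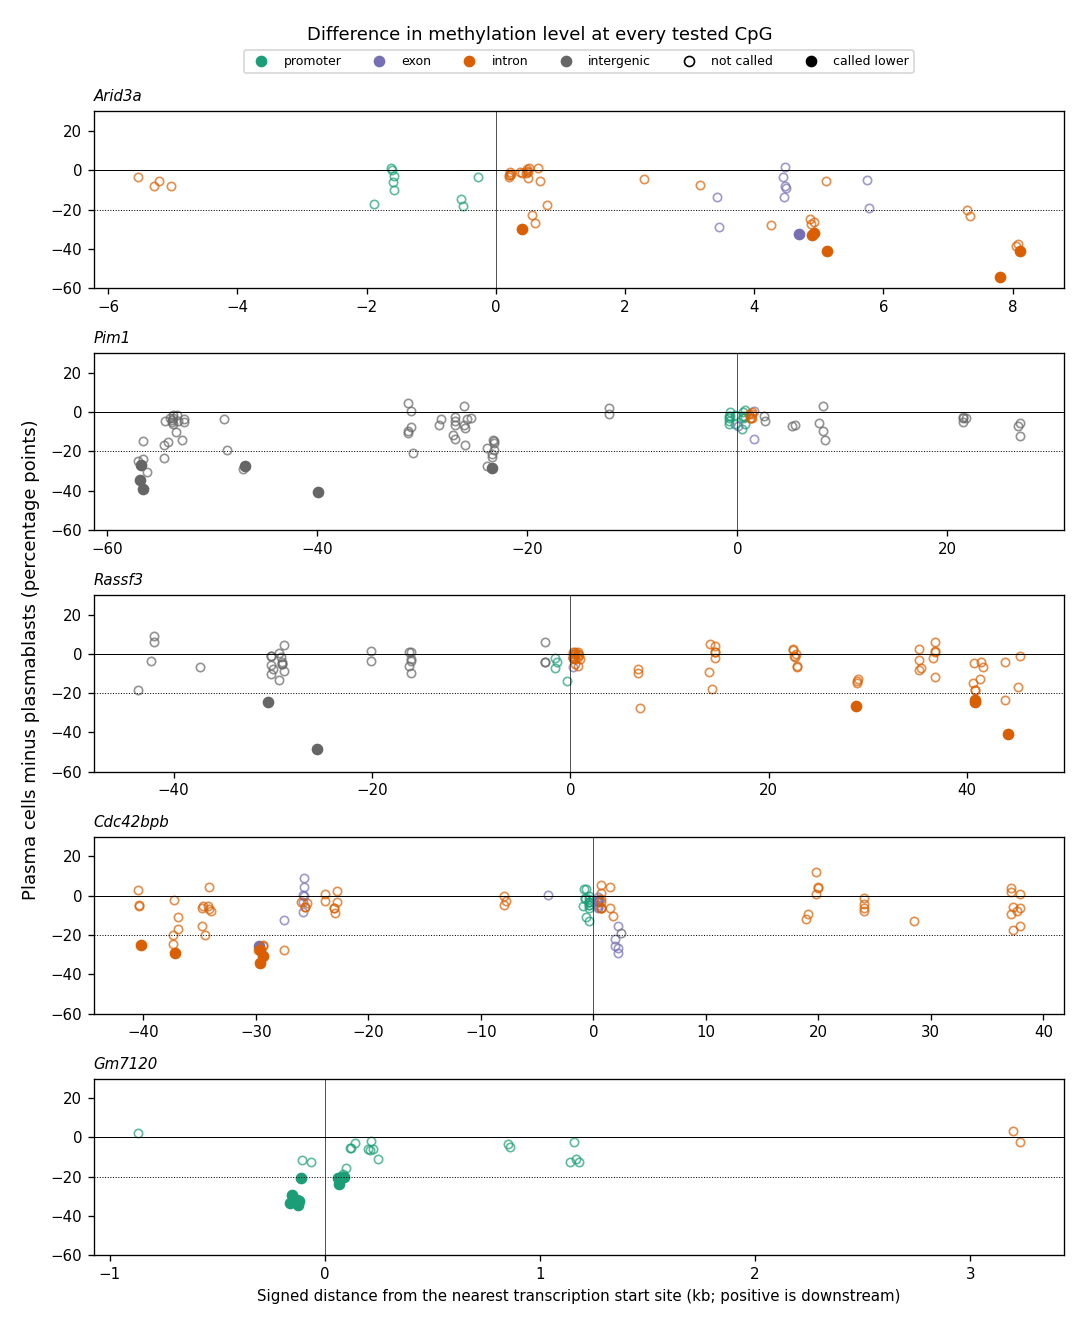
Difference in pooled methylation level, plasma cells minus plasmablasts in percentage points, against signed distance in kb from the nearest start site for the 392 tested CpGs; colour gives the deposited class, filled points were called lower, and the dotted line marks the 20-point minimum. Filled points lie at -56.9 to -23.4 kb in Pim1, on both sides of the start in Rassf3, at negative distances in Cdc42bpb and from -160 bp to 89 bp in Gm7120.

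In Arid3a, the DNA-binding protein gene on chromosome 10, 6 of the 7 CpGs lay 4.70 to 8.11 kb downstream of a start site, and their mean level was lower at each stage than at the one before. The CpG at chr10:79395204 (mm9), 5.12 kb into the gene in an intron, was methylated at 94.7%, 100% and 94.1% in naive B cells 1, 2 and 3, at 50.0%, 64.3% and 41.9% among plasmablasts and at 13.0%, 4.76% and 12% among plasma cells. No 2 stages overlapped there. Its 3 called neighbours in the same run stood at 31.0% to 63.3% in plasma cells and 68.8% to 90.9% in plasmablasts, the exonic one at chr10:79394783 and the intronic ones at chr10:79394981 and chr10:79395001.

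The largest difference among the 36 was at chr10:79397891 in an Arid3a intron, 7.80 kb from the start. Its levels were 90%, 100% and 95.2% for naive B cells, 75.0%, 87.5% and 76.9% for plasmablasts and 41.7%, 17.6% and 23.5% for plasma cells. The difference between the last 2 stages was -54.40 points, on 12 to 17 reads per library of these stages. At chr10:79398193, also in an intron, plasma cells had 30%, 13.2% and 25.7%, against 61.3%, 72.0% and 56.7% in plasmablasts. Between these 2 CpGs lay 2 that were not called although they were lower in plasma cells, at chr10:79398144 and chr10:79398162. Their differences were -38.34 and -37.70 points, on 13 to 19 reads in the libraries of the LPS stages.

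The seventh Arid3a CpG differed in its course. At chr10:79409432, 408 bp downstream of the internal start site at chr10:79409024, naive B cells had 26.1%, 38.5% and 26.7%, plasmablasts 43.8%, 52.4% and 44.7%, and plasma cells 35%, 5.13% and 8.33%. Plasma cells and naive B cells overlapped, and the difference between them, -11.86 points, was not called (quasi-binomial model, adjusted p = 0.139).

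In Pim1, the kinase gene on chromosome 17, the 6 CpGs were all intergenic and upstream of the gene. A group of 3 sat at -56.9 to -56.6 kb from the start. At the outermost, chr17:29571136, naive B cells had 93.8%, 87.5% and 86.1%, plasmablasts 51.6%, 73.0% and 66.7%, and plasma cells 29.7%, 27.3% and 32.0%, so each stage was below the one before it with no overlap. At its neighbour chr17:29571178 plasma cells had 69.6%, 48.2% and 67.3%, against 89.7%, 91.7% and 85.7% in plasmablasts on 52 to 72 reads. At chr17:29571430 naive B cells had 85.7%, 75.6% and 71.4%, plasmablasts 65.0%, 71.4% and 77.8%, and plasma cells 31.6%, 41.9% and 25%, so plasmablasts overlapped with naive B cells while plasma cells stood apart.

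The same course was seen at lone CpGs -46.9 and -39.9 kb from the Pim1 start. At chr17:29588128 naive B cells had 79.2%, 100% and 100%, plasmablasts 93.8%, 86.4% and 89.5%, and plasma cells 56.2%, 38.1% and 58.3%, a difference of -40.49 points between the last 2. At chr17:29581078 naive B cells had 92.6%, 96.3% and 100%, plasmablasts 90.3%, 97.1% and 100%, and plasma cells 79.6%, 60.7% and 56.2%. The plasmablast and naive B cell libraries overlapped at both. The CpG nearest to the gene, chr17:29604614 at -23.4 kb, had 25%, 10.3% and 24.6% in plasma cells and 47.5%, 51.2% and 47.4% in plasmablasts on 58 to 86 reads.

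Rassf3, on chromosome 10 and the minus strand, had 4 such CpGs in its introns, 28.8 to 44.1 kb downstream of the start, and 2 upstream between genes. The largest difference was at the intergenic CpG chr10:120938828, at -25.5 kb, where plasma cells had 53.8%, 40% and 23.5% and plasmablasts 80%, 76.2% and 96.2%, a difference of -48.46 points on 10 to 26 reads. At chr10:120869243, in an intron 44.1 kb downstream, naive B cells had 50.0%, 59.5% and 42.1%, plasmablasts 46.7%, 65.0% and 60.9%, and plasma cells 11.8%, 17.6% and 22.7%, so only the plasma cells stood apart. The pair at chr10:120872499 and chr10:120872511 stood at 45.2% to 75.9% in plasma cells and 82.2% to 97.2% in plasmablasts. The outermost upstream CpG, chr10:120943765 at -30.5 kb, had 57.8%, 56.4% and 62.8% for naive B cells, 25%, 45.0% and 43.4% for plasmablasts and 19.4%, 16.3% and 7.41% for plasma cells, with no overlap. Leaving out 1 library gave counts of 0 to 6 CpGs for Rassf3, with 0 without plasmablasts 3 and 0 without plasma cells 3.

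In Cdc42bpb, on chromosome 12 and the minus strand, 4 of the 6 CpGs sat in 1 run, at chr12:112562908, chr12:112563082, chr12:112563106 and chr12:112563259. Their deposited distance of -29.4 to -29.7 kb is counted from the start of a short transcript (chr12:112531183-112533527), while they lie inside the long one (chr12:112531183-112615929), 3 in introns and 1 in an exon. At chr12:112563106 naive B cells had 94.9%, 100% and 95.8%, plasmablasts 65.4%, 64.7% and 60.4%, and plasma cells 38.6%, 25.7% and 26.2%, on 24 to 79 reads. The exonic CpG chr12:112563259 showed the same order of stages, with 92.8%, 94.4% and 91.3%, then 54.1%, 41.7% and 41.2%, then 31.0%, 13.8% and 13.7%. No stages overlapped at either CpG. The remaining 2 of the run stood at 15.4% to 20.6% in plasma cells and 39.3% to 56.1% in plasmablasts.

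The other 2 Cdc42bpb CpGs lay at -37.2 and -40.2 kb from that start, in introns. At chr12:112570741 naive B cells had 92.3%, 94.4% and 81.0%, plasmablasts 37.1%, 55.6% and 41.7%, and plasma cells 25%, 10.7% and 13.6%, with no overlap. At chr12:112573766 naive B cells had 81.5%, 84.6% and 92.3%, plasmablasts 80.3%, 65.3% and 82.3%, and plasma cells 42.4%, 60% and 51.3%, so plasmablasts overlapped with naive B cells there.

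Values just outside the threshold were close to some just inside it. Among the member CpGs not called, 32 were also at least 20 points lower in plasma cells than in plasmablasts. They numbered 11 in Arid3a, 10 in Cdc42bpb, 9 in Pim1, 2 in Rassf3 and none in Gm7120. The share of all tested CpGs with such values is not given here, so these counts describe the member CpGs only. The nearest uncalled CpG on either side of each run of called ones differed by -23.04 points at the median in Arid3a (8 CpGs), -23.31 in Pim1 (8), -17.66 in Cdc42bpb (6) and -7.60 in Rassf3 (10). At Gm7120 the 2 such CpGs differed by 2.26 and -15.37 points. In gene rank, Bcor (299 tested CpGs) and Srprb (31) held 6 called CpGs as well, and 8 genes, among them Foxp1, Zeb2 and Cbfa2t3, held 5.

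**Figure D2:**
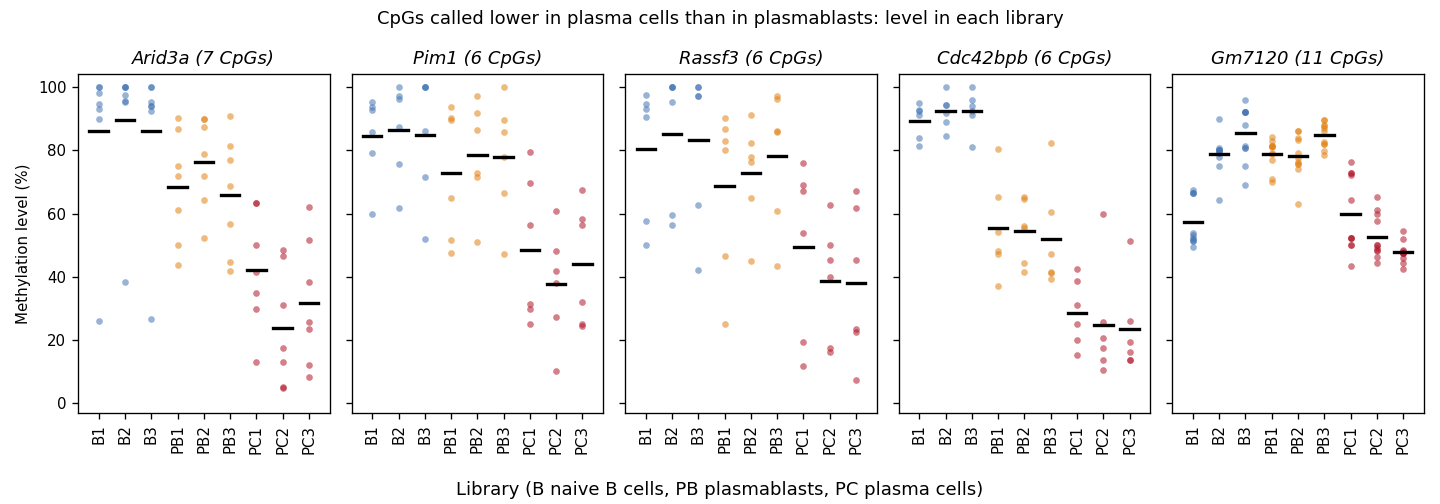
Methylation level (%) of the 36 CpGs called lower in plasma cells than in plasmablasts, by gene and library; each point is 1 CpG and each black bar the library's mean. Bars step down through the stages in the first 4 genes, while in Gm7120 naive B cells 1 (57.3%) sit beside the plasma cells (47.8% to 59.9%).

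Set against naive B cells, the sites of the first 4 genes held CpGs called at the first step, at the second, or only over both. The CpGs called lower in plasma cells than in plasmablasts are named late CpGs from here on, and the tests against naive B cells share libraries with the comparison on which the genes were chosen. Over all 5 genes, 112 of the 392 CpGs were lower in plasma cells than in naive B cells, where 22.7% of all tested CpGs were. With each CpG's own dispersion none of them was called, nor any CpG of the table. Between plasmablasts and naive B cells 51 of the 392 were lower, where 10.6% of the table was. None was higher in either comparison under the quasi-binomial model or limma, beside 0.0452% of the table for plasma cells and 0.0693% for plasmablasts under the first of these. At an unadjusted p under 0.05, 1 was higher in plasma cells and 30 in plasmablasts under the quasi-binomial model, and 2 and 21 under limma. The median differences over the member CpGs were -8.41 and -3.96 points, beside -9.62 and -5.88 points over the table. Of the 25 CpGs of the 4 genes described above, 9 were also lower in plasmablasts than in naive B cells and 24 were lower in plasma cells than in naive B cells. A further 42 CpGs of the 4 genes were lower in plasmablasts than in naive B cells without being called between the LPS stages, and 45 were called only over both steps together.

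At the late CpGs of Cdc42bpb more of the whole difference between naive B cells and plasma cells was present in plasmablasts than at those of the other 3 genes, taken by the medians. The share is the fall between naive B cells and plasmablasts as a percentage of that between naive B cells and plasma cells. In Cdc42bpb its median was 59.4%, and 5 of 6 were called lower in plasmablasts than in naive B cells, the smallest adjusted p being 4e-11 at chr12:112563259 (quasi-binomial model). That p rests on read counts and the shared dispersion, not on the CpG's own spread between libraries. In Arid3a the median was 28.1% and 3 of 7 were called, in Rassf3 26.3% and none of 6, and in Pim1 18.6% and 1 of 6. At the Rassf3 late CpGs the plasmablast minus naive B cell differences ran to -19.87 points, at chr10:120943765 (adjusted p = 0.00625), which is inside the p threshold and just short of 20 points. Whether these shares differ between genes was not tested.

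Sites with most of their loss present in plasmablasts lay in the same genes, some of them close to the late ones. The examples here were chosen after their values were seen. In Pim1 the pair at chr17:29615795 and chr17:29615811, at -12.2 kb, had the largest differences between plasmablasts and naive B cells among them. At the first, naive B cells had 98.1%, 95.3% and 100%, plasmablasts 2.78%, 14.6% and 2.33%, and plasma cells 6.90%, 0% and 8.82%. Plasmablasts minus naive B cells, the difference was -91.21 points at this CpG and -93.22 points at the second, with adjusted p = 4.6e-45 and 4.59e-47 (quasi-binomial model). These p-values rest on read counts and the shared dispersion, not on the spread between libraries at each CpG. With each CpG's own dispersion no member CpG was called in this comparison. The shares of the loss present in plasmablasts were 98.6% and 102.5%.

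In Arid3a the intronic CpG chr10:79393247, 3.16 kb into the gene, had 69.2%, 81.5% and 72.7% for naive B cells, 3.85%, 22.2% and 0% for plasmablasts and 0%, 5.56% and 0% for plasma cells, and 90.6% of the loss was present in plasmablasts. In Rassf3, chr10:120884355 had 88.4%, 100% and 100% for naive B cells, 20.0%, 26.3% and 25% for plasmablasts and 7.69%, 12.5% and 15.4% for plasma cells, in the same run as the late CpG chr10:120884549. That late CpG had 92.9%, 95.2% and 100%, then 86.7%, 78.0% and 85.7%, then 69.1%, 50.0% and 45.5% through the stages. In Cdc42bpb, chr12:112570790 lies 49 bp from the late CpG chr12:112570741 and had 46.2%, 50.0% and 36.6% for naive B cells, 5.88%, 13.9% and 0% for plasmablasts and 9.38%, 4% and 2.44% for plasma cells.

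The authors deposited lists of differential CpGs against naive B cells, made at a false discovery rate of 0.01 and a change of at least 20 points. The plasma cell list held 24 of the 25 late CpGs of the 4 genes and the plasmablast list 7. These lists come from the same libraries, and the 24 are those also called here against naive B cells. The overlap is therefore not separate support, and the share of all tested CpGs in the lists was not counted. The exception in the plasma cell list was Arid3a chr10:79409432. Neither list held any of the 11 Gm7120 CpGs.

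Gm7120 went against the description as a gene of late loss. Its 11 CpGs lay in 1 run on chromosome 13, from -160 to 89 bp of the start at chr13:120277667, with the promoter of the non-coding gene 3110070M22Rik overlapping it. At chr13:120277543, the one with the largest difference (-34.34 points), plasma cells had 52.2%, 50.0% and 42.4% and plasmablasts 81.2%, 75.8% and 89.7%. The naive B cell libraries did not stay together there: naive B cells 1 had 49.3%, inside the range of plasma cells, naive B cells 2 had 80%, inside that of plasmablasts, and naive B cells 3 had 92.0%. At the outermost CpGs, chr13:120277507 and chr13:120277756, plasma cells had 52.2%, 49.1% and 45.9% and 76.4%, 65.3% and 54.4%, against 81.2%, 75.8% and 89.7% and 84.2%, 86.0% and 87.0% in plasmablasts. At 10 of the 11 CpGs naive B cells 1 were on the plasma cell side of the midpoint between the 2 LPS stages and naive B cells 2 and 3 on the plasmablast side. The same split was seen at none of the 25 late CpGs of the other 4 genes and at 7.88% of the 2349 in the whole table.

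Naive B cells 1 also share with the plasma cells the low level at nearly unmethylated CpGs given above. Whether the split is related to that level was not tested. Averaged over the 11 CpGs, naive B cells stood at 57.3%, 78.7% and 85.4%, plasmablasts at 78.9%, 78.2% and 84.8%, and plasma cells at 59.9%, 52.8% and 47.8%. The 6 CpGs at chr13:120277507 to chr13:120277548 had nearly the same read counts in each library, 75 or 76 in naive B cells 1, 20 in naive B cells 2 and 25 in naive B cells 3. They lie within the length of 1 read, as do the 4 at chr13:120277730 to chr13:120277756, so the CpGs of each set share reads and are not separate observations. With all naive libraries, 2 of the 33 Gm7120 CpGs were lower in plasma cells than in naive B cells. Without naive B cells 1 there were 7, and with that library alone there was 1. Between plasmablasts and naive B cells no Gm7120 CpG was called. Stage and library set cannot be told apart for this gene either.

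**Figure D3:**
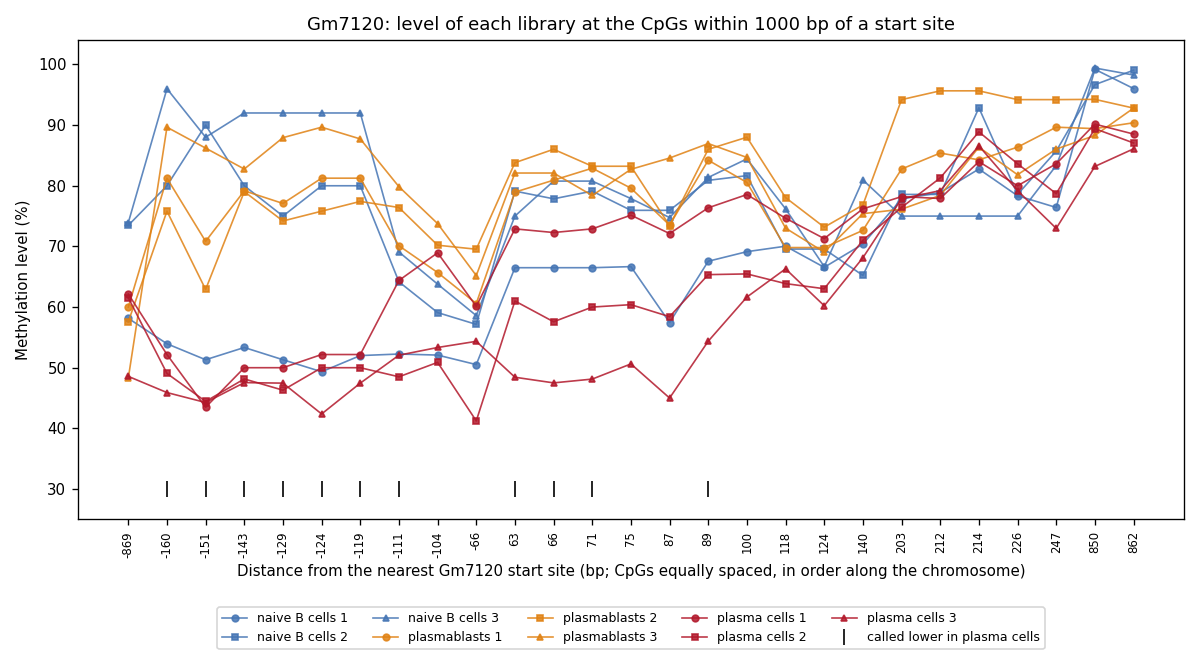
Methylation level (%) of each of the 9 libraries at the 27 Gm7120 CpGs within 1000 bp of a start site, in chromosomal order and equally spaced, with distance to the nearest start in bp; ticks mark the 11 CpGs called lower in plasma cells than in plasmablasts. Over the 6 leftmost ticked CpGs naive B cells 1 run with the plasma cells near 50.0%, and naive B cells 2 and 3 with the plasmablasts.

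Summed over all tested CpGs of a gene, the first 4 genes were lower in plasma cells than in naive B cells and Gm7120 was not called. A locus counted as lower at an adjusted p under 0.01 over 14220 genes with at least 5 CpGs and a difference of at least 5 points, and 67.4% of all loci met this. For Arid3a, naive B cells had 43.7%, 46.2% and 47.1%, plasmablasts 38.6%, 39.0% and 37.5%, and plasma cells 30.1%, 19.7% and 21.8%. The difference between plasma cells and naive B cells was -21.53 points (quasi-binomial model, adjusted p = 7.93e-05). For Pim1, plasma cells had 25.4%, 15.9% and 16.1%, against 40.2%, 40.6% and 41.7% in naive B cells, a difference of -21.68 points (adjusted p = 8.56e-05). Rassf3 differed by -20.13 points (quasi-binomial model, adjusted p = 9.66e-05), with means of 46.0 ± 5.76% in plasma cells and 66.5 ± 0.315% in naive B cells (SD, n = 3 libraries). Cdc42bpb differed by -20.64 points (quasi-binomial model, adjusted p = 8.33e-05), with 47.4 ± 4.72% and 68.0 ± 3.53% (SD, n = 3 libraries). The median difference over all loci was -15.67 points. An exact two-sided permutation over the libraries used the unweighted mean of a gene's CpG levels instead of pooled reads. By this permutation each of these 4 genes gave p = 0.1, the smallest that 3 against 3 allows, and Gm7120 gave p = 0.2.

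Between plasmablasts and naive B cells the 4 genes differed by -7.11 points in Arid3a (adjusted p = 0.0682), -6.91 in Pim1 (adjusted p = 0.0959), -7.72 in Rassf3 (adjusted p = 0.0326) and -8.0 in Cdc42bpb (adjusted p = 0.0266), and none passed the threshold, which 25.4% of all loci did as lower and 0.00703% as higher. At an unadjusted p under 0.05 the quasi-binomial model had all 4 lower, and limma on unweighted means called all 4, as it did 56.2% of all loci. The median over all loci was -7.42 points. Gm7120 differed by 4.64 points between plasmablasts and naive B cells (adjusted p = 0.287) and by -6.91 points between plasma cells and naive B cells (adjusted p = 0.0749). Without naive B cells 1 the first of these was -0.745 points and the second -12.3 points, which was then called. With each CpG weighted equally, the Gm7120 difference between plasma cells and naive B cells was -11.12 points, and limma on these means called it along with the other 4 genes and 79.9% of all loci.

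Plasma cells minus plasmablasts, the locus differences were -14.42 points for Arid3a, -14.77 for Pim1, -12.41 for Rassf3, -12.64 for Cdc42bpb and -11.55 for Gm7120, beside a median of -7.78 over all loci. These pool reads, so that deeply read CpGs weigh more. With each CpG weighted equally the differences were -14.15 points for Arid3a, -9.22 for Pim1, -6.29 for Rassf3, -7.52 for Cdc42bpb and -14.24 for Gm7120, beside a median of -4.54. No locus of the 14220 was called in this comparison by the quasi-binomial model, while 7240 were lower at an unadjusted p under 0.05 and limma on unweighted means called 1450 lower (10.2%) and none higher. In all 5 genes plasma cells 1 had the highest level of the 3 plasma cell libraries, and without that library all 5 loci were called lower, as were 20.1% of all loci.

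**Figure D4:**
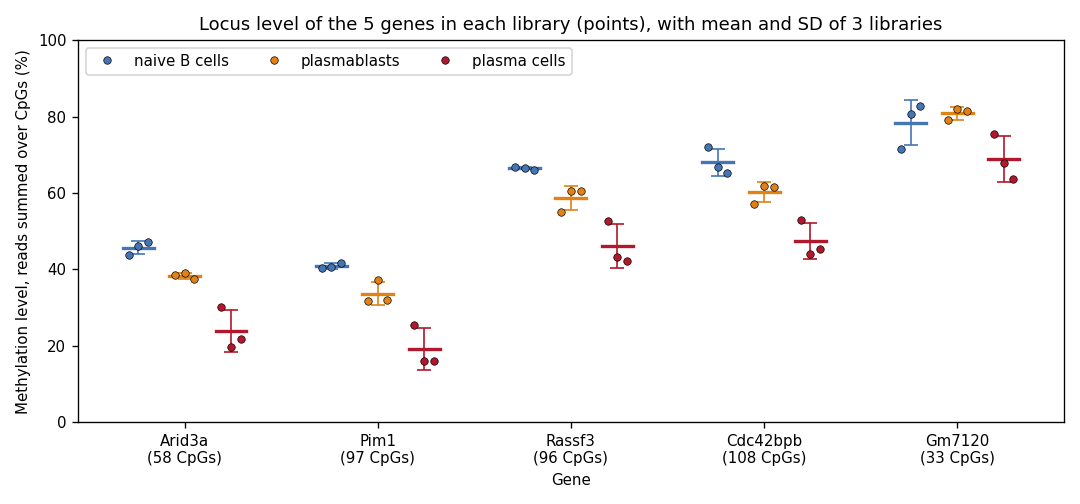
Methylation level (%) summed over the tested CpGs of each gene, with points for libraries and bars for the mean and SD of 3 libraries, in stage order. In the first 4 genes the stages step down, with 45.7%, 38.4% and 23.8% on average in Arid3a, whereas Gm7120 averages 78.3%, 80.8% and 69.0%.

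The loci whose 9 library levels were most like each gene's, by root mean square difference, were Lrrc32 for Arid3a (1.80 points), Klf2 for Pim1 (2.26 points), Rbfox3 for Rassf3 (1.45 points), Epb4.1l4b for Cdc42bpb (1.77 points) and Tmem50a for Gm7120 (2.95 points). Klf2, a zinc finger transcription factor of resting lymphocytes, averaged 40.4% for naive B cells, 31.3% for plasmablasts and 17.9% for plasma cells over 21 CpGs. The next loci were Plcd1 and Tcf7 for Arid3a, Gpsm1 and Edaradd for Pim1, Ptprk and 6430573F11Rik for Rassf3, Tmem130 and 1110032F04Rik for Cdc42bpb, and Spns3 and Engase for Gm7120.

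Relatives of 4 of the genes are read against the 0.659% of all tested CpGs that were lower in plasma cells than in plasmablasts. Of 461 CpGs in 13 other ARID family genes, 4 were lower in plasma cells than in plasmablasts (0.868%), 2 in Arid5b and 2 in Jarid2. The Arid5b locus averaged 87.8 ± 4.24% for naive B cells, 80.1 ± 2.95% for plasmablasts and 69.8 ± 5.38% for plasma cells (SD, n = 3). Jarid2, a partner of Polycomb repressive complexes, averaged 71.2 ± 2.16%, 67.4 ± 1.80% and 55.6 ± 3.98% in that order of stages. Of 210 CpGs in 8 kinases related to Cdc42bpb, 4 were lower (1.90%), 2 in Cit and 1 each in Rock2 and Pak2. The Cit locus, which encodes citron kinase, averaged 92.5 ± 0.933% for naive B cells, 87.6 ± 0.298% for plasmablasts and 81.9 ± 4.03% for plasma cells. None of 156 CpGs in 9 other Rassf genes and none of 20 CpGs of Pim3 was called lower by the quasi-binomial model. Against naive B cells, plasma cells were lower at 7 of 11 ARID loci, 7 of 9 Rassf loci, 4 of 8 related kinases and not at Pim3, where 67.4% of all loci were.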

How the data were processed

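Per the labels' protocols, spleen DNA was digested with MspI, ligated to methylated adaptors of 2 kinds, bisulfite treated, amplified by PCR and read as 50 bp single-end reads; per the submitters' processing notes, Bismark and Bowtie2 were used with build mm9 (versions not given in the sources used here). Deposited by the authors were counts of methylated and unmethylated reads per CpG and library, and the same level as a fraction. The signed distance to the nearest start site, handled as a score, and the class of each CpG are also the deposited annotation. Per the file headers the authors' lists of differential CpGs passed a false discovery rate of 0.01, and their names give a minimum change of 20 points.

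The 5 genes, their relatives and the tests were chosen with earlier results of these data known. CpGs with at least 10 reads in all 9 libraries were tested. Each was fitted by a quasi-binomial logistic model of its counts with stage as the factor; the dispersion was moderated with limma 3.58.1 (R 4.3.3) toward that of CpGs at 5% to 95% (1.24 for CpGs and 4.66 for gene loci, with prior degrees of freedom infinite for CpGs and 4.17 for loci) and held at 1 or above. P-values were Benjamini-Hochberg adjusted over all CpGs or all loci. The call was made at adjusted p under 0.01 and 20 points for CpGs, or 5 points for loci of at least 5 CpGs. The models were tested on simulated data. Libraries of 1 stage correlated at 0.956 to 0.986, with at most 1.29% of CpGs identical in both counts, and each was taken as 1 sample. The precision of a single CpG is set by its number of reads and the shared dispersion, that of a locus also by its own spread between libraries. Reads carry no molecular identifiers and are not independent molecules. Text names all 5 genes and, per gene, the called CpGs with the largest differences, the first and last of them and the nearest uncalled neighbours. Other CpGs are said to be chosen after their values were seen. Alternatives were coverage minimums of 5 and 20, each CpG's own dispersion, limma on log2 ratios, subtraction of the level at nearly unmethylated CpGs, a looser call, unweighted means, a replicate block and leaving out each library.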

Additional observations from a re-analysis of the deposited data

How the results depend on the processing

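Member CpGs called lower numbered 36 for plasma cells minus plasmablasts, 112 for plasma cells minus naive B cells and 51 for plasmablasts minus naive B cells. With at least 20 reads per library these were 25, 39 and 15, and 1 locus was called between plasmablasts and naive B cells in place of 0; fewer CpGs were tested there. With each CpG's own dispersion all 3 counts were 0, as was every count in the whole table. With limma on log2 ratios they were 0, 108 and 46. At an adjusted p under 0.05 and 10 points the first and last were 66 and 103. Limma on unweighted means called 4 loci between the LPS stages and 4 between plasmablasts and naive B cells, beside 10.2% and 56.2% of all loci. Leaving out each library in turn gave 12 to 42, 105 to 119 and 45 to 53 CpGs. It gave 0 to 5, 4 to 5 and 0 to 4 loci. Shares of all tested CpGs are not given beside most of these CpG counts, so changes cannot be read as particular to the 5 genes. Without plasma cells 1 there were 5 and 4 loci in the first and last comparisons, beside 20.1% and 31.7% of all loci. By gene, the late CpGs numbered 1 to 9 in Arid3a, 2 to 9 in Pim1, 0 to 6 in Rassf3, 1 to 6 in Cdc42bpb and 6 to 14 in Gm7120 when each library was left out in turn. The Gm7120 locus difference between plasmablasts and naive B cells ran from -0.745 points without naive B cells 1 to 6.277 points without naive B cells 3, with 4.64 over all libraries. The cause of these shifts was not tested. With naive B cells 1 as the only naive library, an alternative chosen after seeing the data, 86 CpGs were lower in plasma cells than in naive B cells. Without Gm7120, also chosen after seeing the data, the counts were 25, 110 and 51.

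Deviations of same-numbered libraries correlated at -0.0287 to 0.0302, and of others at -0.0368 to 0.0419. Single CpG levels at this coverage vary by read counting, so these values cannot tell whether libraries of the same number were paired. With the replicate block the counts were 24, 112 and 50 CpGs and 0, 4 and 0 loci. Coverage limits the calls: at chr10:79398144 in Arid3a a difference of -38.34 points was not called between the LPS stages, whose libraries had 13 to 19 reads there.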
